A study of Mus musculus with 12 samples.

Results

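Sox1, Sox2, Sox3, Sox21, Sox4, Sox11, Sox5, Sox6 and Sox9 are 9 genes of the SOX family of transcription factors that are best known from neural progenitors and young neurons. They were chosen by name, as members of SOX groups B, C and D together with Sox9 of group E, out of 47069 distinct gene identifiers in the expression table. All 9 reached 0.7 CPM (counts per library scaled to a common total) in all 12 libraries, so none depended on a single group to pass the filter, and all 9 were among the 18319 genes tested.

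SOX proteins bind short DNA sites through a conserved domain, the HMG box, and usually act together with a partner factor. Sox1, Sox2 and Sox3 (group B1) hold neural cells in the progenitor state, and Sox21 (group B2) works against them. Sox4 and Sox11 (group C) switch on genes of newborn neurons, whereas Sox5 and Sox6 (group D) lack an activation domain of their own and hold oligodendrocyte precursor cells (OPCs) in an immature state. Sox9 is known from the switch of progenitors to making glia and, with Sox5 and Sox6, from cartilage.

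Total RNA was sequenced from Pdgfra/GFP+ cells that had been taken by flow sorting out of Pdgfra-H2BGFP mice, heterozygous knock-ins in which a histone-GFP fusion is made from the Pdgfra locus. Pdgfra is a growth factor receptor gene of OPCs that other cells, such as fibroblast-like cells, also use, and the stable nuclear GFP persists into early oligodendrocyte differentiation. The 4 groups were E13.5 (embryonic) brain, E13.5 spinal cord, P7 (postnatal) brain and P7 spinal cord, with brain dissected as forebrain at both ages. Each had 3 libraries, each made from pooled animals. Animals of both sexes were used, and the sexes within each pool are not stated. Papain was used for P7 tissue and mechanical force alone for embryos, so age and dissociation cannot be told apart.

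The position genes followed the region labels. Lhx2, a gene of the forebrain, had 40.3 ± 10.9 CPM in brain against 1.98 ± 0.401 CPM in spinal cord at E13.5 (SD, n = 3 here and below), and the 5 Hox genes of spinal cord summed to at most 2.66 CPM in any brain library. Pdgfra itself was measured at 688 ± 139 CPM in embryonic brain, 444 ± 97.9 CPM in embryonic spinal cord, 3127 ± 423 CPM in P7 brain and 2089 ± 66.3 CPM in P7 spinal cord. Libraries held 12566345 to 38790312 reads. E13.5 spinal cord replicate 3 stood apart, with 40.9% of its reads in protein-coding genes against 82.4% to 91.1% in the others, and 3 reads in it were worth 0.506 CPM. The library sizes behind the 3 P7 brain columns were 13.1% to 16.3% larger, relative to sizes by the TMM method, than those of the other 9 libraries, which lowers their CPM. The median log2 difference of all tested genes was −0.19 for age in brain, −0.19 for brain minus spinal cord at P7 and −0.24 for the interaction of region and age, and with TMM scaling it was −0.02, −0.02 and −0.07. The deposited values gave medians of 0.12 for age in spinal cord and 0.05 for brain minus spinal cord at E13.5. The differences and calls below are taken against 0, and these medians were not subtracted from them.

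The HMG box is the conserved core of the family, and its coding sequence shows how far their reads could be confused. A stretch of 60 coding bases near the start of the box, beginning at the same codon in each gene, is printed here from GENCODE M21 transcripts (build GRCm38, the same assembly as mm10) with capitals for the bases that differ from Sox2. The stretch is coding exon in all 9, namely the only exon of Sox1, Sox2, Sox3, Sox21, Sox4 and Sox11, exon 1 of Sox9, exon 13 of Sox5 and exon 14 of Sox6. All coordinates below are of the same build.
Sox1, chr8:12396514-12396573, plus strand: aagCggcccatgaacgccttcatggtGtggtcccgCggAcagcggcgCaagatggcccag
Sox2, chr3:34650545-34650604, plus strand: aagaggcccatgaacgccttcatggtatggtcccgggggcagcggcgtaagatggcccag
Sox3, chrX:60892939-60892998, minus strand: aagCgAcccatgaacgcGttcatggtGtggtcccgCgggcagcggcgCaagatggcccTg
Sox21, chr14:118235552-118235611, minus strand: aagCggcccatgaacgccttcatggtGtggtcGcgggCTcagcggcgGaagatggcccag
Sox4, chr13:28952785-28952844, minus strand: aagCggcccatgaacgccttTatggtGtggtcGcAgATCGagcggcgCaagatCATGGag
Sox11, chr12:27342202-27342261, minus strand: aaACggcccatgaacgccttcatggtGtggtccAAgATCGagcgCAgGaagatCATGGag
Sox5, chr6:143841217-143841276, minus strand: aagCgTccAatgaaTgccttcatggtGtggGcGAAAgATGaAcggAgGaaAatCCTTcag
Sox6, chr7:115489706-115489765, minus strand: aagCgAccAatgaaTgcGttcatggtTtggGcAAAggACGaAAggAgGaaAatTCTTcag
Sox9, chr11:112782900-112782959, plus strand: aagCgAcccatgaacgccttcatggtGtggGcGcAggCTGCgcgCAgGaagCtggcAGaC
Relative to Sox2 the stretch differed at 5 bases in Sox1, 6 in Sox21 and 7 in Sox3, at 15 in Sox4, at 17 in Sox11 and in Sox9, at 21 in Sox5 and at 22 in Sox6. Over the whole box of 237 bases Sox4 and Sox11 shared 89.5% of their bases, as did Sox1 and Sox2. The longest run of letters shared exactly by transcripts of any 2 of the 9 genes was 48 bases, between Sox4 and Sox11, followed by 45 bases between Sox1 and Sox3. Sox2, Sox3, Sox11, Sox6 and Sox9 shared no window of 50 bases with a transcript of another gene, and those of Sox1, Sox21 and Sox4 were shared only with genes annotated over them. Sox5 shared such windows with Sox5os1, an antisense gene over it at 0 to 0.337 CPM, and at 12 or fewer windows with each of the other genes found.

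**Figure D1:**
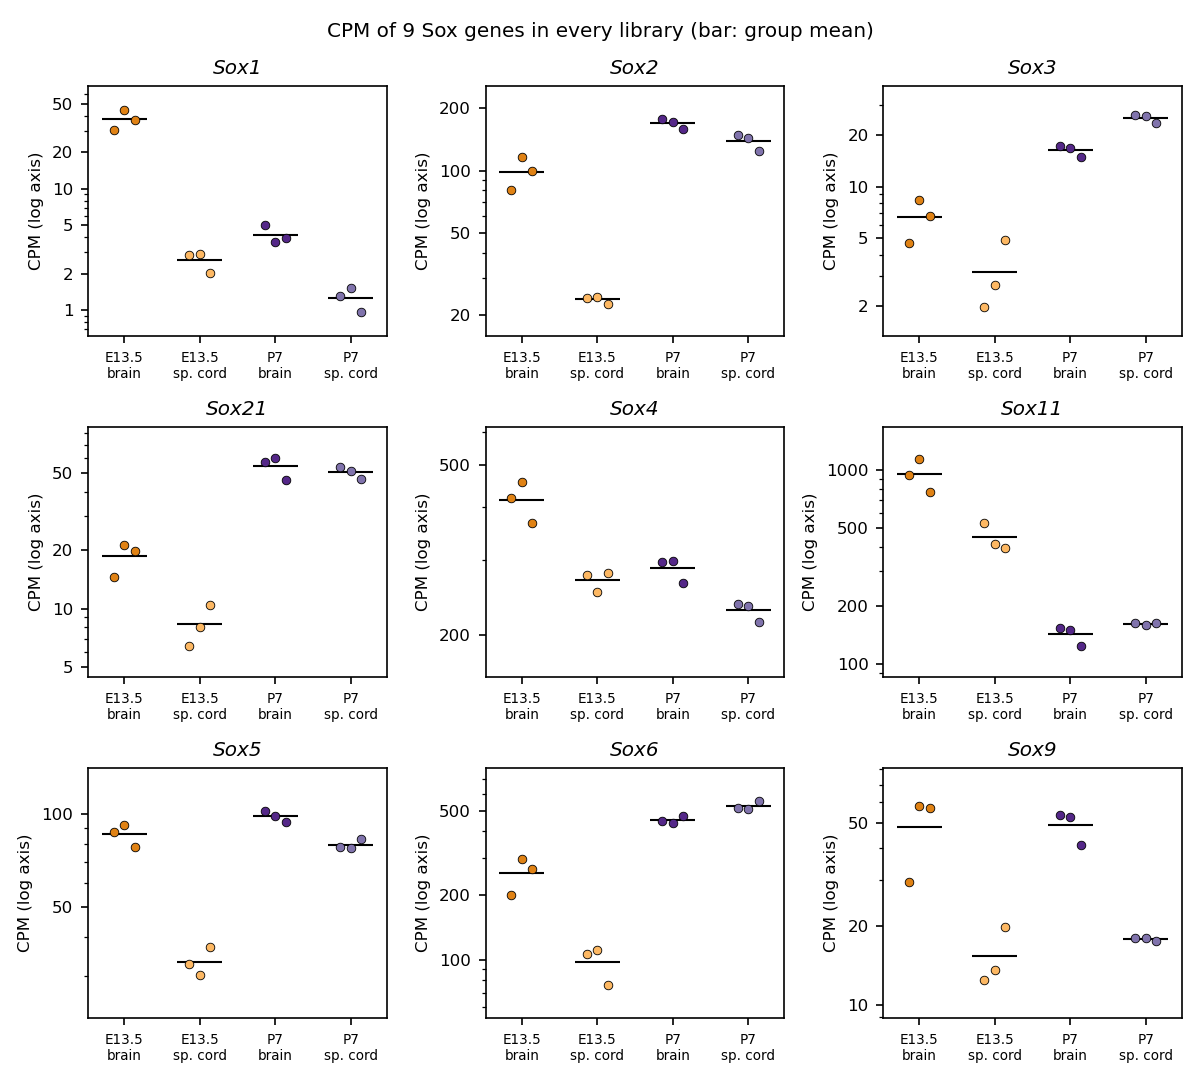
CPM of the 9 Sox genes in each of the 12 libraries on logarithmic axes, with 1 panel per gene, 1 point per library and a bar at the mean of each group of 3. Sox1 and Sox11 stood highest in E13.5 brain, while Sox2, Sox3, Sox21 and Sox6 stood higher in all 6 P7 libraries than in any E13.5 library.

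Between E13.5 and P7 the 9 genes differed in direction, also within SOX group B1. The group C genes among the 9, Sox4 and Sox11, both had negative differences in both regions, of unlike size. In the tests below a gene was called when its adjusted p from limma, with Benjamini-Hochberg adjustment over all tested genes, was under 0.05 and it also differed by more than 2-fold. In brain, Sox3 and Sox21 were called higher at P7 and Sox1 and Sox11 lower, that is 2 of 9 higher where 11% of all tested genes were, and 2 of 9 lower where 16.7% were. In spinal cord, Sox2, Sox3, Sox21, Sox5 and Sox6 were called higher, 5 of 9 against 16.9% of tested genes, and Sox11 lower, 1 of 9 against 18.2%. The median difference of the 9 was 0.19 in brain and 1.25 in spinal cord on the log2 scale.

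Between the regions the 9 genes leaned one way at E13.5. All 9 had a higher mean in E13.5 brain than in E13.5 spinal cord, and 7 of 9 were called higher in brain where 3.53% of tested genes were, with 0 of 9 called lower where 5.17% were. At P7, 2 of 9, Sox1 and Sox9, were called higher in brain against 2.27% of tested genes, and 0 of 9 lower against 4.35%. The median difference of the 9 was 1.35 for E13.5, and for P7 it was 0.29. Whether the brain excess depended on age was tested as an interaction, which was negative for all 9 and called for 7 of 9 against 9.66% of tested genes called lower, while 0 of 9 were called higher against 6.66%. The values of Sox9 (−0.17) and Sox4 (−0.29) lay near the median of −0.24 over all tested genes. With median-ratio scaling the interaction of Sox4 and of Sox9 turned positive and 4 of 9 were called. This lean was not particular to the Sox genes. Among 8 OPC genes such as Olig2, 6 were called higher in brain at E13.5 and 0 lower, with a median of 1.43. At P7 0 of the 8 were called either way, and in the interaction 6 were called lower and 0 higher.

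**Figure D2:**
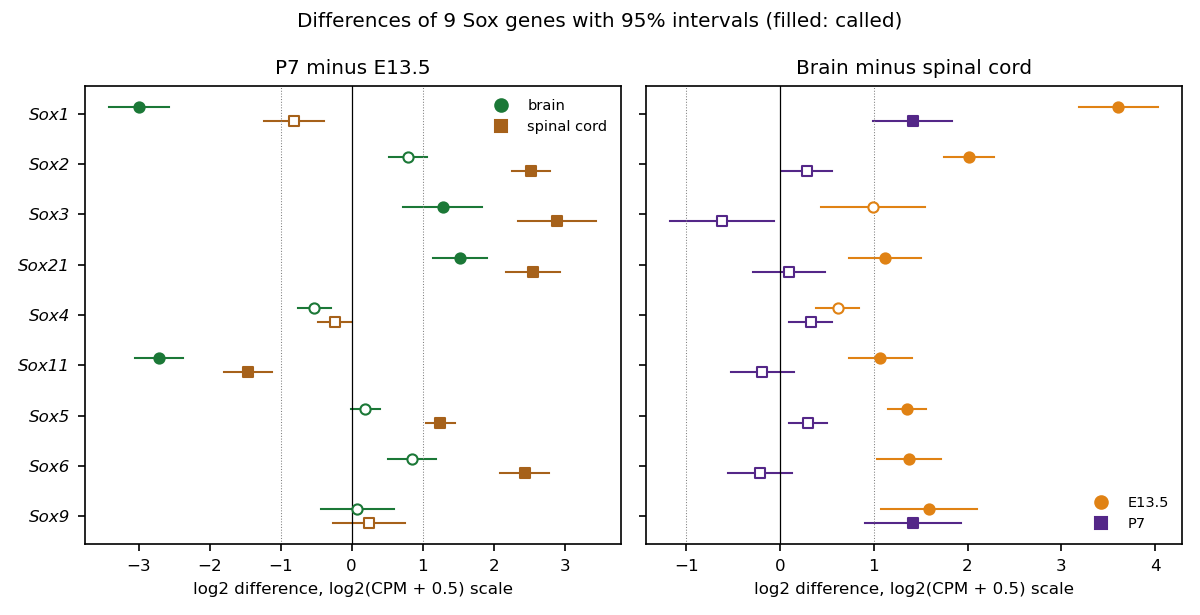
Differences of the 9 Sox genes in log2(CPM + 0.5) with their 95% intervals from limma, P7 minus E13.5 on the left and brain minus spinal cord on the right. Filled symbols are called differences, and dotted lines mark 2-fold. At E13.5 all 9 points lie on the brain side of 0, and at P7 most lie near it.

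Other cells moved with these comparisons. The summed level of 6 genes of fibroblast-like cells and pericytes, such as Col1a1, was 2581 to 3704 CPM in E13.5 brain and 5333 to 5791 CPM in E13.5 spinal cord, and 645 to 1302 CPM at P7. Not every gene followed this sum. Lum had 474 ± 99.8 CPM in E13.5 brain against 282 ± 60.3 CPM in E13.5 spinal cord. With age in brain Rgs5 was called higher and 5 were called lower (11% and 16.7% of tested genes). Between regions at E13.5, 3 of the 6 were called lower in brain and 0 higher (5.17% and 3.53% of tested genes). The 8 OPC genes summed to 1352 to 2508 CPM in E13.5 brain, 656 to 1113 CPM in E13.5 spinal cord and 11608 to 12526 CPM at P7, and 6 oligodendrocyte genes such as Mbp to 1383 to 3510 CPM in P7 brain and 17807 to 23826 CPM in P7 spinal cord. No OPC or fibroblast gene of these lists was at 0 in a group. The 10 neuron genes summed to 1423 to 1876 CPM in every group, with overlapping ranges in the regions at E13.5. Map2 was the largest of them in every group and was not called with age. Tubb3 and Stmn2 were called lower at P7 in both regions, and Syt1 and Rbfox3 in spinal cord alone. Elavl3 and Gap43 were called higher at P7 in spinal cord. The part of these cells in the Sox differences was not tested, and in pooled sorted cells fewer cells of a type and less RNA per cell cannot be told apart.

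Sox1 (ENSMUSG00000096014, chr8:12395295-12400126, plus strand), the group B1 member most restricted to dividing neural progenitors, was largely an E13.5 brain gene. It was measured at 30.7, 44.4 and 36.5 CPM in E13.5 brain, 2.86, 2.89 and 2.02 CPM in E13.5 spinal cord, 5.0, 3.67 and 3.93 CPM in P7 brain and 1.32, 1.51 and 0.962 CPM in P7 spinal cord. No 2 groups overlapped. Sox1 fell between E13.5 and P7 in brain, from 37.2 ± 6.91 to 4.20 ± 0.703 CPM (log2 difference −3.00 ± 0.19 SE, adjusted p = 5.46e-08). It was 3.61 ± 0.19 higher in brain than in spinal cord at E13.5 on the log2 scale (adjusted p = 6.69e-08), at percentile 99.8 of all tested genes, and 1.42 ± 0.19 higher at P7 (adjusted p = 0.000203). In spinal cord the P7 value lay −0.81 ± 0.19 from that at E13.5 (adjusted p = 0.00245), under 2-fold and not called by limma on CPM, but called by edgeR (−1.09) and by limma voom (−1.12) on the recovered reads. Only 12 to 65 reads stood behind the E13.5 spinal cord values and 31 to 49 behind those of P7 spinal cord.

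Sox2 (ENSMUSG00000074637, chr3:34650405-34652461, plus strand), which keeps progenitors undifferentiated and is used by OPCs and astrocytes as well, went the other way. It was measured at 80.4, 116 and 99.1 CPM in E13.5 brain, 24.1, 24.4 and 22.6 CPM in E13.5 spinal cord, 178, 171 and 159 CPM in P7 brain and 149, 144 and 124 CPM in P7 spinal cord. No E13.5 library reached the lowest of the 6 P7 libraries, and E13.5 spinal cord was the low group. Sox2 rose in spinal cord from 23.7 ± 0.965 to 139 ± 13.1 CPM (2.52 ± 0.12 SE, adjusted p = 2.88e-09). In brain the difference was 0.79 ± 0.12 (adjusted p = 0.000108), which stayed under 2-fold and was called only with median-ratio scaling, at 1.00. The brain excess of 2.02 ± 0.12 at E13.5 (adjusted p = 1.71e-07) compared with 0.29 ± 0.12 at P7 (95% interval 0.02 to 0.55, adjusted p = 0.0951). All P7 brain libraries were above all P7 spinal cord libraries. This P7 difference ran from 0.21 to 0.51 over the 23 alternatives, under 2-fold in each.

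Sox3 (ENSMUSG00000045179, chrX:60891366-60893430, minus strand), the third B1 gene, overlaps with Sox2 in function in neural progenitors. It was measured at 4.66, 8.39 and 6.76 CPM in E13.5 brain, 1.97, 2.67 and 4.89 CPM in E13.5 spinal cord, 17.4, 16.9 and 14.9 CPM in P7 brain and 26.3, 26.0 and 23.8 CPM in P7 spinal cord. The E13.5 regions overlapped, through E13.5 spinal cord replicate 3 with 29 reads, and at P7 all spinal cord libraries were above all brain libraries. Sox3 rose in brain by 1.28 ± 0.25 (adjusted p = 0.000813) and in spinal cord by 2.89 ± 0.25 (adjusted p = 5.37e-07) on the log2 scale. The E13.5 brain excess of 0.99 ± 0.25 (adjusted p = 0.0098) sat at the 2-fold line. It was called with a pseudocount of 0.1 (1.09), with edgeR (1.22), with limma voom (1.27), on reads thinned to the smallest library (1.05), without E13.5 brain replicate 1 (1.21) and without E13.5 spinal cord replicate 3 (1.31). At P7 the difference was −0.62 ± 0.25 (adjusted p = 0.087).

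Set against Sox2 within each library, a comparison that library scaling cannot move, the other B1 genes went apart. Ratios of reads here are not corrected for gene length and are compared between groups only, not read as which gene had the higher level. The ratio of Sox1 reads to Sox2 reads was 0.369 to 0.383 in E13.5 brain, 0.0896 to 0.119 in E13.5 spinal cord, 0.0214 to 0.0280 in P7 brain and 0.00774 to 0.0105 in P7 spinal cord. The 4 ranges did not overlap. The ratio of Sox3 to Sox2 was 0.0579 to 0.0722 in E13.5 brain, and at P7 it was 0.0935 to 0.0985 in brain and 0.176 to 0.191 in spinal cord, whereas E13.5 spinal cord spread from 0.0815 to 0.216. Per kilobase of exon, Sox2 made up 81.5% ± 0.495 of the B1 level of embryonic brain and 90.4% ± 0.219 of that of P7 brain, and Sox1 made up 13.1% ± 0.266 and 0.951% ± 0.126. In P7 spinal cord the share of Sox3 was 15.3% ± 0.550 and that of Sox1 0.325% ± 0.0508.

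**Figure D3:**
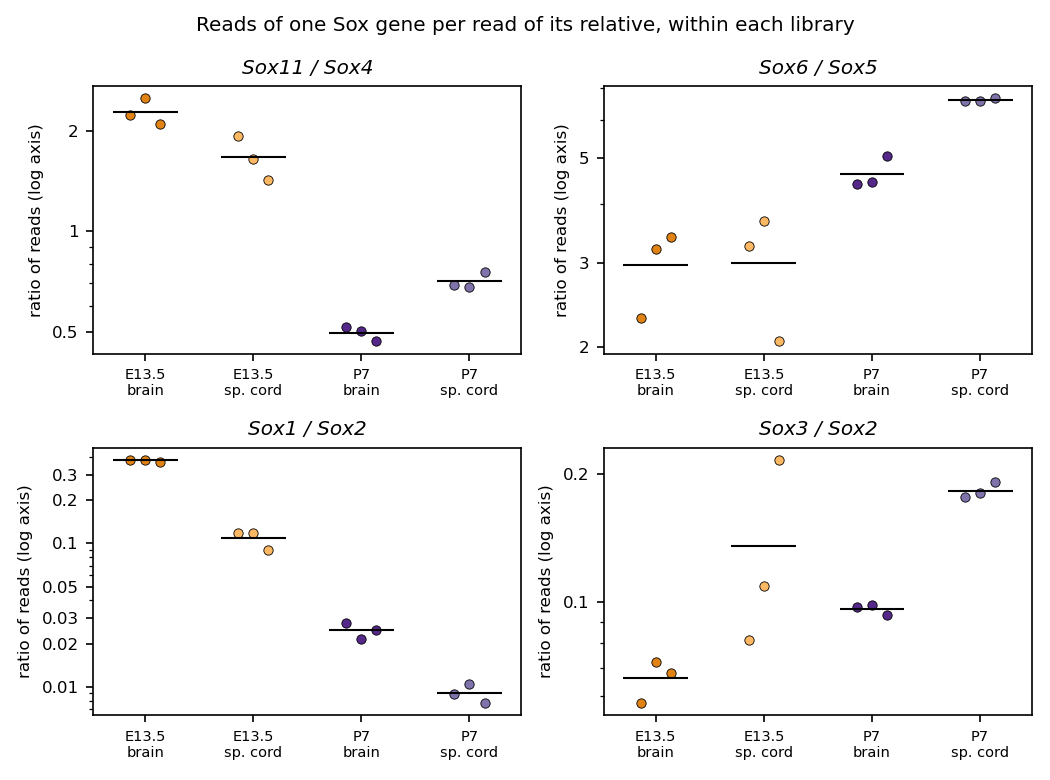
Reads of Sox11 per read of Sox4, of Sox6 per read of Sox5, of Sox1 per read of Sox2 and of Sox3 per read of Sox2, in each library on logarithmic axes, with a bar at the mean of each group of 3. The Sox11 to Sox4 ratio is higher in all 6 E13.5 libraries than in any of the 6 P7 libraries, and the ratios are not corrected for gene length.

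Sox21 (ENSMUSG00000061517, chr14:118233232-118237030, minus strand), the repressor of group B2, had a pattern near that of Sox3, with a root mean square difference of 0.287 between their centred log2 profiles over 12 libraries, the smallest of the 36 pairs among the 9 genes. It was measured at 14.6, 21.3 and 19.9 CPM in E13.5 brain, 6.43, 8.05 and 10.5 CPM in E13.5 spinal cord, 57.0, 59.3 and 46.1 CPM in P7 brain and 53.4, 51.1 and 46.4 CPM in P7 spinal cord. The ages did not overlap, and the regions overlapped at P7 only. Sox21 rose by 1.53 ± 0.18 in brain (adjusted p = 9.47e-06) and by 2.55 ± 0.18 in spinal cord (adjusted p = 5.95e-08). It was 1.12 ± 0.18 higher in brain at E13.5 (adjusted p = 0.000417), a call lost without E13.5 spinal cord replicate 1 (0.96), and 0.10 ± 0.18 at P7 (95% interval −0.28 to 0.48). Gm4675, a gene on the opposite strand, covers 18.8% of the exon bases of Sox21 and was at 0.834 to 3.57 CPM.

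Sox4 and Sox11 are the group C pair of immature neurons and share most of their HMG box, yet their levels parted with age. Sox11 (ENSMUSG00000063632, chr12:27334264-27342574, minus strand) was measured at 937, 1143 and 767 CPM in E13.5 brain, 532, 416 and 398 CPM in E13.5 spinal cord, 153, 150 and 124 CPM in P7 brain and 163, 160 and 163 CPM in P7 spinal cord. Every E13.5 library was above every P7 library. Sox11 fell from 949 ± 188 to 142 ± 15.9 CPM in brain (−2.72 ± 0.15, adjusted p = 1.95e-08) and from 449 ± 72.8 to 162 ± 1.84 CPM in spinal cord (−1.46 ± 0.15, adjusted p = 2.99e-06). At E13.5 it was 1.07 ± 0.15 higher in brain (adjusted p = 0.000227), a call that ended without E13.5 brain replicate 2 (0.93), without E13.5 spinal cord replicate 3 (0.99) or with median-ratio scaling (0.99). At P7 the region difference was −0.19 ± 0.15 (adjusted p = 0.398) and turned to 0.00 with TMM and 0.04 with median-ratio scaling.

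Sox4 (ENSMUSG00000076431, chr13:28948919-28953713, minus strand) was called in none of the 5 comparisons. It was measured at 419.5, 456 and 367 CPM in E13.5 brain, 276, 252 and 279 CPM in E13.5 spinal cord, 296, 298 and 265 CPM in P7 brain and 236, 234 and 214 CPM in P7 spinal cord. E13.5 brain was the high group, and E13.5 spinal cord and P7 brain overlapped. Its differences were −0.53 ± 0.11 with age in brain (adjusted p = 0.000884), −0.24 ± 0.11 with age in spinal cord (adjusted p = 0.0614) and 0.62 ± 0.11 between regions at E13.5 (adjusted p = 0.000791), all under 2-fold. Within libraries there were 2.09 to 2.51 reads of Sox11 per read of Sox4 in E13.5 brain and 1.43 to 1.93 in E13.5 spinal cord, against 0.469 to 0.518 in P7 brain and 0.682 to 0.759 in P7 spinal cord. Gm26735, a noncoding gene on the opposite strand, covers 54.6% of the exon bases of Sox4 and was at 1.77 to 6.38 CPM. Whether reads were counted by strand is not stated, so reads of that pair may not be fully told apart.

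As Sox2 and Sox11 changed rank with age and Sox4 is the group C relative of Sox11, the 250 bases before their RefSeq starts (build GRCm38.p6) are shown, 5′ to 3′ on the strand of the gene. Capitals mark the CCAAT box, the GC box GGGCGG, the TATA box in the form TATAAA, the octamer core ATGCAAA and the SOX-type words ACAAAG as well as ACAATG, on either strand. None of the words is contained in another.
Sox2, chr3:34649745-34649994, plus strand: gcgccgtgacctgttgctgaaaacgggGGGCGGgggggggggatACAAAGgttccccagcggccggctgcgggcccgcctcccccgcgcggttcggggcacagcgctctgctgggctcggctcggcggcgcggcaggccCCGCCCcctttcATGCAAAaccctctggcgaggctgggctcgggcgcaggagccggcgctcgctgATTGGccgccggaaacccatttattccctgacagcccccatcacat
Sox4, chr13:28953700-28953949, minus strand: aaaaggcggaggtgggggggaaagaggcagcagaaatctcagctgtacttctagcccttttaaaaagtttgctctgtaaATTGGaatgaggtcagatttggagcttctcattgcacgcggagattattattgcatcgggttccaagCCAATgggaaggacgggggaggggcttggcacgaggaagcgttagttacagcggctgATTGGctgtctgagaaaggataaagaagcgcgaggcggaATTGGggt
Sox11, chr12:27342719-27342968, minus strand: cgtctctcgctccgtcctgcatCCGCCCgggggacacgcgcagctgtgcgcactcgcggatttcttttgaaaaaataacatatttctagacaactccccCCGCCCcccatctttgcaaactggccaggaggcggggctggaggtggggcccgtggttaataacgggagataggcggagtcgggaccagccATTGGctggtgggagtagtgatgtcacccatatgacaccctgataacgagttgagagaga
The Sox4 window held 4 CCAAT words and none of the others. By its GENCODE position Sox4 reaches to 28953713, so the end of this window, down to 28953700, lies inside the annotated gene. The last of the 4 CCAAT words lies there. The Sox11 window held 1 CCAAT and 2 GGGCGG words, and the Sox2 window held 1 CCAAT, 2 GGGCGG, 1 ACAAAG and 1 ATGCAAA. Of 32851 promoter windows of this length, 33.8% held CCAAT, 32.7% GGGCGG, 16.5% ACAAAG, 12.4% TATAAA, 10.7% ACAATG and 4.12% ATGCAAA. The windows were 72.0% G or C for Sox2, 58.0% for Sox11 and 50.8% for Sox4, against a median of 52.4% over all windows. These words are matches of letters and were not tested as binding sites.

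Sox5 and Sox6, the group D partners that restrain OPC differentiation, were low in E13.5 spinal cord. Sox6 (ENSMUSG00000051910, chr7:115470872-116038796, minus strand) was measured at 202, 295 and 266 CPM in E13.5 brain, 106, 111 and 76.3 CPM in E13.5 spinal cord, 449, 439 and 473 CPM in P7 brain and 515, 511 and 552 CPM in P7 spinal cord. No 2 groups overlapped. Sox6 rose in spinal cord from 97.9 ± 18.9 to 526 ± 22.6 CPM (2.44 ± 0.16, adjusted p = 3.39e-08), and was 1.37 ± 0.16 higher in brain at E13.5 (adjusted p = 3.97e-05). In brain the difference with age was 0.85 ± 0.16 (adjusted p = 0.000496), under 2-fold, and became a call with TMM (1.04) and with median-ratio scaling (1.06). The P7 region difference of −0.21 ± 0.16 (adjusted p = 0.346) turned to 0.02 with median-ratio scaling.

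Sox5 (ENSMUSG00000041540, chr6:143828425-144781977, minus strand) was measured at 87.5, 92.1 and 78.1 CPM in E13.5 brain, 32.7, 30.2 and 37.1 CPM in E13.5 spinal cord, 102, 98.8 and 93.9 CPM in P7 brain and 78.3, 77.7 and 82.7 CPM in P7 spinal cord. Only E13.5 spinal cord stood well apart. It rose in spinal cord by 1.25 ± 0.09 (adjusted p = 1.14e-07), was 1.35 ± 0.09 higher in brain at E13.5 (adjusted p = 5.36e-07) and differed by 0.19 ± 0.09 with age in brain (95% interval −0.01 to 0.40, adjusted p = 0.0864). Reads of Sox6 per read of Sox5 numbered 2.30 to 3.41 in E13.5 brain, 2.05 to 3.68 in E13.5 spinal cord, 4.40 to 5.04 in P7 brain and 6.57 to 6.67 in P7 spinal cord. The E13.5 regions overlapped in this ratio and the P7 regions did not.

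Sox9 (ENSMUSG00000000567, chr11:112782224-112787760, plus strand), a gene of radial glia and astrocytes, was ordered by region at both ages. It was measured at 29.6, 57.7 and 56.8 CPM in E13.5 brain, 12.4, 13.6 and 19.9 CPM in E13.5 spinal cord, 53.5, 52.5 and 40.8 CPM in P7 brain and 18.0, 18.0 and 17.6 CPM in P7 spinal cord. All brain libraries were above all spinal cord libraries, and the ages overlapped in both regions. Sox9 was 1.58 ± 0.24 higher in brain at E13.5 (adjusted p = 0.000277) and 1.42 ± 0.24 higher at P7 (adjusted p = 0.000813). With age it differed by 0.08 ± 0.24 in brain (95% interval −0.43 to 0.59), which turned to −0.23 without E13.5 brain replicate 1, and by 0.24 ± 0.24 in spinal cord (95% interval −0.27 to 0.76). Cartilage genes, which Sox9, Sox5 and Sox6 are known to drive, were read in the same libraries, and their relation to Sox9 was not tested. Of the 7 that passed the filter, 3 were called lower in brain at E13.5 and 5 at P7. Called higher in brain were 1 at E13.5, namely Matn3, and 0 at P7. Of all tested genes 5.17% and 4.35% were called lower, and 3.53% and 2.27% higher.

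Compared per kilobase of exon, a scale for ranking levels of different genes, the order of the 9 genes turned over with age. Exon length here joins the exons of all annotated transcripts of a gene, 14.4 kb for Sox5 and 14.8 kb for Sox6. Genes with several transcript forms may therefore rank too low. In E13.5 brain the order was Sox11 (114 ± 22.6 CPM per kb), Sox4 (86.4 ± 9.36), Sox2 (47.9 ± 8.70), Sox6 (17.2 ± 3.24), Sox9 (11.6 ± 3.86), Sox1 (7.70 ± 1.43), Sox5 (5.98 ± 0.498), Sox21 (4.89 ± 0.928) and Sox3 (3.20 ± 0.906), and of the neighbours only Sox4 and Sox2, and Sox2 and Sox6, had ranges that did not overlap. In E13.5 spinal cord Sox4 (56.1 ± 3.12) and Sox11 (54.0 ± 8.76) overlapped at the top, ahead of Sox2 (11.5 ± 0.469), and Sox1 was last at 0.536 ± 0.102 CPM per kb. At P7 Sox2 led in both regions, at 82.4 ± 4.74 CPM per kb in brain and 67.6 ± 6.35 in spinal cord, followed without overlap by Sox4, Sox6 and Sox11, in that order. Sox1 was last in both, at 0.869 ± 0.145 and 0.262 ± 0.0578 CPM per kb. Sox11 made up 38.0% ± 3.40 of the summed level of the 9 genes in brain and 38.8% ± 3.82 in spinal cord at E13.5, against 7.39% ± 0.403 and 9.47% ± 0.451 at P7.

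**Figure D4:**
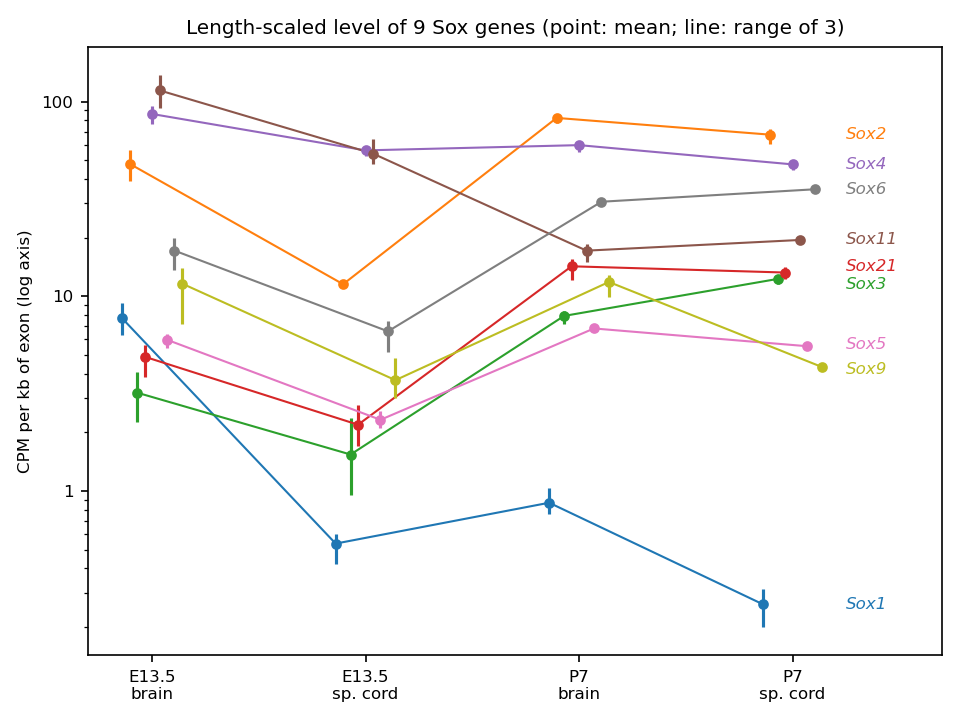
Level of the 9 Sox genes in CPM per kilobase of exon on a logarithmic axis in the 4 groups, with points at the mean of 3 libraries, vertical lines over their range and thin lines joining the groups of 1 gene. Sox11 and Sox4 are at the top at E13.5, and Sox2 is at the top in both P7 groups.

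Noncoding transcripts that run over Sox1 and Sox2 on the same strand gave a further view of these loci. Sox1ot, which shares no exon base with Sox1, was at 26.7, 31.6 and 25.5 CPM in E13.5 brain and at 1.19 CPM or less in every other library, where 2 to 45 reads stood behind it. It fell in brain with age by 4.36 ± 0.23 on the log2 scale (adjusted p = 1.14e-08), and the ratio of its reads to those of Sox1 was 0.698 to 0.872 in E13.5 brain and 0.0645 to 0.375 elsewhere. Sox2ot, which runs over Sox2 without sharing exon bases, was at 73.2, 103 and 81.2 CPM in E13.5 brain, 22.0, 23.2 and 9.62 CPM in E13.5 spinal cord, 69.5, 69.0 and 80.8 CPM in P7 brain and 151, 148 and 127 CPM in P7 spinal cord. It rose in spinal cord with age by 3.02 ± 0.26 (adjusted p = 3.95e-07), while the difference in brain was −0.22 ± 0.26 (adjusted p = 0.482). There were 0.390 to 0.508 reads of Sox2ot per read of Sox2 in P7 brain and 1.01 to 1.03 in P7 spinal cord, 2 ranges that did not overlap.

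**Figure D5:**
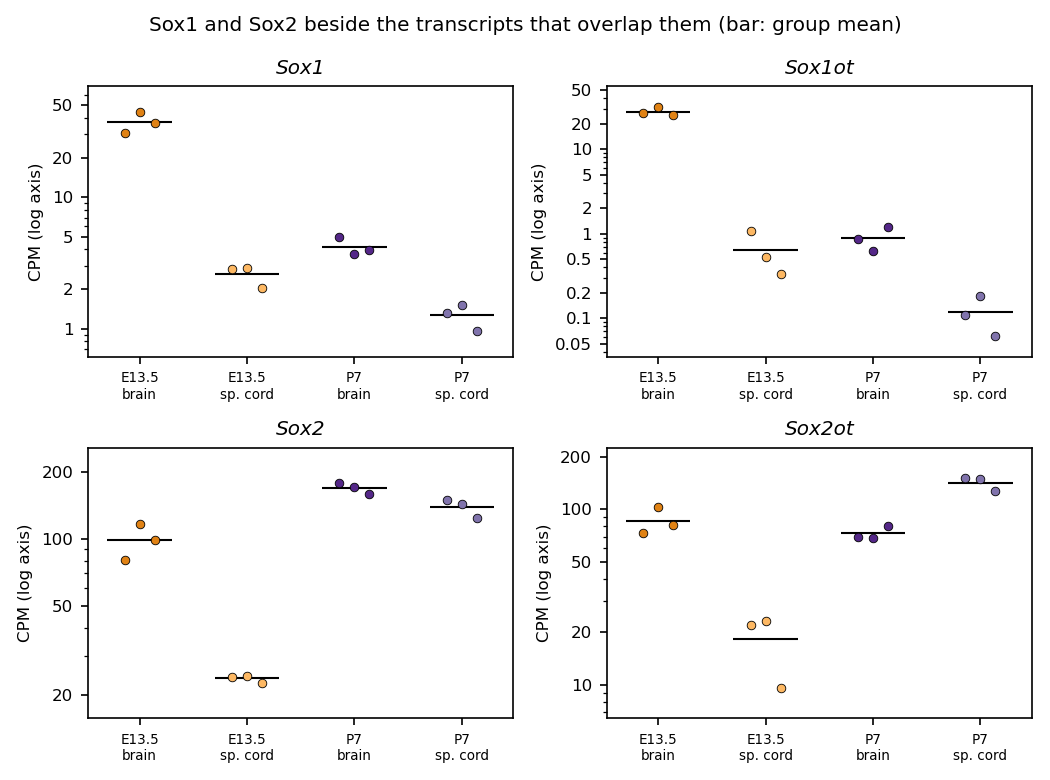
CPM of Sox1, Sox1ot, Sox2 and Sox2ot in each library on logarithmic axes, with a bar at the mean of each group of 3. Sox1 and Sox1ot are both highest in E13.5 brain, whereas Sox2ot is highest in P7 spinal cord and Sox2 in P7 brain.

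Of 11 other Sox genes, 5 passed the filter. Sox8 and Sox10, the group E factors of the oligodendrocyte lineage, were called higher at P7 in both regions, with Sox8 at 16.7 ± 4.37 CPM in the embryonic and 439.8 ± 8.71 CPM in the P7 brain, and at 12.2 ± 1.28 and 527 ± 15.3 CPM in spinal cord. The corresponding levels of Sox10 were 39.2 ± 14.5 and 421 ± 4.73 CPM, and 21.5 ± 3.76 and 669 ± 47.3 CPM. Sox9, of the same group, was called with age in neither region. Sox12, the third gene of group C, was at 19.3 to 19.9 CPM in the mean of every group, with a difference of 0.03 ± 0.15 with age in brain (95% interval −0.30 to 0.35). Sox13 of group D had 12.9 ± 1.67 CPM in brain against 23.5 ± 1.93 CPM in spinal cord at E13.5, a log2 difference of −0.84 that was not called.

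Factors that work beside SOX proteins were read in the same libraries. Of 6 partner factors, 3 were called higher in brain at E13.5, namely Pou3f1, Pou3f3 and Pax6, and 0 lower. Of all tested genes 3.53% were called higher and 5.17% lower. The median difference of the 6 was 1.00 against 0.05 for all tested genes. Pou3f1, Pou3f2 and Pou3f3 were called higher at P7 in spinal cord, by 3.01 ± 0.18, 1.57 ± 0.18 and 1.63 ± 0.14 on the log2 scale. Pax6, a progenitor factor that works with Sox2 in the forebrain and eye, fell in brain from 35.3 ± 2.02 to 6.12 ± 1.17 CPM (adjusted p = 1.42e-08). Of 7 proneural factors, which start neuronal differentiation upstream of Sox4 and Sox11, 6 were called lower and 0 higher at P7 in brain. In spinal cord 5 were called lower and 1 higher. Of all tested genes 16.7% were called lower and 11% higher with age in brain, and 18.2% and 16.9% in spinal cord. Neurog2 fell from 25.3 ± 2.14 to 0.347 ± 0.174 CPM in brain (adjusted p = 2.24e-09).

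Of the cells in which the 9 genes are known, OPCs and astrocytes had lists that leaned to P7. All 8 OPC genes were called higher at P7 in both regions. Of 6 astrocyte genes, 5 were called higher and 1 lower at P7 in brain, and 4 higher and 1 lower in spinal cord. The lists of progenitor, neuron and gliogenic genes showed mixed directions. Of all tested genes, 16.7% were called lower and 11% higher at P7 in brain, and 18.2% lower and 16.9% higher in spinal cord. The neuron and gliogenic counts in brain lay near these shares. Of 10 progenitor and radial glia genes, 5 were called lower and 2 higher at P7 in brain, and 4 lower and 3 higher in spinal cord. Nes fell in brain from 386 ± 27.3 to 87.8 ± 6.12 CPM, and Fabp7 rose from 394 ± 137 to 809 ± 209 CPM. Of 10 neuron genes, 2 were called lower and 0 higher at P7 in brain, and 4 lower and 2 higher in spinal cord. Tubb3, a tubulin of young neurons, fell in brain from 329 ± 38.9 to 38.1 ± 4.44 CPM, and Dcx, another gene of young neurons, differed by −0.33 ± 0.16 on the log2 scale and was not called. Of 6 gliogenic factors, 1 was called higher and 1 lower at P7 in brain, with a median of −0.02, and 2 higher and 1 lower in spinal cord.

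The genes whose centred log2 profiles lay nearest to each member over the 12 libraries, among 13268 candidates, were found by root mean square difference and are given as a description. Nearest to Sox2 were Spry1 (0.152) and Spry4 (0.195), where the median candidate lay at 1.13. Nearest to Sox5 were Xk (0.176) and Dusp6 (0.195), and to Sox6 Etv5 (0.182) and Sema5b (0.183). Sox1 lay nearest to Sp9 (0.352) and Calb1 (0.409), the former a factor of forebrain interneurons, and at a greater distance than the other members lay from theirs. Sox4 lay nearest to Cul4b (0.0995) and Sms (0.103), Sox11 to Sinhcaf (0.194) and Cyp39a1 (0.277), Sox3 to Psat1 (0.170) and Pcolce2 (0.195), Sox21 to Epdr1 (0.150) and Slc35g1 (0.165), and Sox9 to Pantr1 (0.274) and Sel1l3 (0.337).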

How the data were processed

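Total RNA-seq was available for 12 libraries in 4 groups of 3, grouped and numbered by their titles. In the methods of the study, stranded libraries were aligned with STAR 2.5.0a to mm10 and counted with featureCounts 1.5.0-p1 on GENCODE M8, with multi-mapping reads shared fractionally. The authors deposited CPM values scaled by normalization factors, and 3 columns whose sums exceed the total of that unit are treated as a scaled signal, deposited on the same scale. All 12 columns gave whole reads (100% of values within 0.01 of a read), and 0 columns were left out. Of 47069 identifiers, 46488 had a GENCODE M21 symbol.

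The main fit was limma 3.58.1 (R 4.3.3) with an intensity trend on log2(CPM + 0.5), 1 mean per group over 12 libraries, genes with at least 0.7 CPM in 3 libraries, Benjamini-Hochberg adjusted p under 0.05 and more than 2-fold. The study used limma voom, which was run on the recovered reads as an alternative, as was edgeR 4.0.16. The log2(CPM + 0.5) scale understates changes of low genes. Exon lengths and positions came from GENCODE M21. Named genes were the members, genes of the lists, genes overlapping a member and the 2 nearest profiles per member among genes with at least 1 CPM on average. The members and lists were chosen with earlier results of these data known. The scripts were tested on simulated counts. The methods of the study call the 3 libraries of a group pooled biological replicates, so p-values measure the spread between pools, and counting error is covered without PCR duplicates being told apart.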

Additional observations from a re-analysis of the deposited data

Results flagged for a closer look

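For 7 of the 9 genes the difference between brain and spinal cord changed with age, as tested by the interaction term in limma, given on the log2 scale as the brain excess at P7 less the brain excess at E13.5. The values were −2.19 for Sox1, −1.73 for Sox2, −1.61 for Sox3, −1.02 for Sox21, −1.26 for Sox11, −1.05 for Sox5 and −1.59 for Sox6, against a median of −0.24 over all tested genes. In Sox1 the brain excess became smaller at P7 and remained called, in Sox2, Sox21, Sox11, Sox5 and Sox6 the call at E13.5 was not made at P7, and Sox3 was called at neither age. Sox21 was under 2-fold with a pseudocount of 1 (−0.98), Sox21 and Sox5 with TMM scaling (−0.83 and −0.86), and Sox21, Sox5 and Sox11 with median-ratio scaling (−0.71, −0.74 and −0.95). Leaving out 1 library at a time, Sox21 was under 2-fold without E13.5 brain replicate 2 (−0.92) or 3 (−0.97), E13.5 spinal cord replicate 1 (−0.86), P7 brain replicate 3 (−0.91) or P7 spinal cord replicate 1 (−0.98), and Sox5 without E13.5 spinal cord replicate 2 (−0.99). The 8 OPC genes, read in the same libraries, had a median of −1.38 in this test, and the part of OPC numbers in the Sox values was not tested.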

How the results depend on the processing

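Of 1035 values of single members under 23 alternatives, 1001 kept direction and side of the threshold, 16 fell below it, 11 passed it and 7 reversed. Reversed values were uncalled. With TMM scaling these were Sox11 between regions at P7 (0.0025) and Sox9 in the interaction (0.0234), and with median-ratio scaling the same 2 (0.0390 and 0.142), Sox6 between regions at P7 (0.0151) and Sox4 in the interaction (0.0237). Sox9 with age in brain ran from −0.23 to 0.24 as each library was left out. For adjusted p alone, genes called numbered 11227 and 12822 with age in brain and spinal cord, 5979 and 5491 between regions at E13.5 and P7 and 7290 in the interaction, against 5068, 6436, 1595, 1213 and 2990, and members 7 with age in brain and 4 between regions at P7. With median-ratio scaling 4 members were called in the interaction. The share of calls that were higher moved from 39.7% to 49.3% with TMM scaling and 50.1% with median-ratio scaling for age in brain, from 34.3% to 46.4% and 49.3% between regions at P7, and from 40.8% to 55.0% and 63.7% in the interaction. Shares by median-ratio scaling were 43.1% in place of 48.2% and 32.8% in place of 40.6% for the others.

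Whether replicate numbers pair the samples cannot be settled with 3 libraries per group. Deviations of same-numbered libraries correlated at 0.08 to 0.41 between the E13.5 regions, with a mean of 0.27 against −0.13 for other numbers. The correlations were 0.01 to 0.04 between the P7 regions and −0.21 to 0.09 across ages. The fit with the replicate block called 4, 6, 7, 2 and 7 members in the 5 comparisons, as did the fit without it. Over 6 pairs of groups at most 2 of 3 libraries correlated best with their own number. P7 replicates 1 and 2 lay close in both regions (SD of log2 ratios 0.0739 and 0.0738 against 0.179 to 0.219 for other P7 pairs), although still beyond sampling noise, and averaging them changed no count of members. Sox1 in spinal cord, Sox1ot outside E13.5 brain and Sox3 in E13.5 spinal cord rest on the fewest reads.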
